A study of Mus musculus with 12 samples.

Results

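The 7 genes described here encode the chains of the collagens that build the fibrils of cartilage: Col2a1 for collagen II, Col9a1, Col9a2 and Col9a3 for collagen IX, Col11a1 and Col11a2 for collagen XI, and Col27a1 for collagen XXVII. They were taken by symbol from a deposited RNA-seq table, in which they are 7 of 17922 genes. RNA came from primary rib chondrocytes of mice of a mixed strain that is mostly C57BL/6, freed from rib cartilage with collagenase and kept briefly in serum-containing medium. The 12 samples form 4 groups of 3. At postnatal day 5, cells in which Col2-Cre had acted on 2 floxed Ldha alleles and which carried 1 intact Ldhb allele (LDH knockout; lactate dehydrogenase turns pyruvate into lactate) were compared with control cells from littermates. At E18.5, an embryonic day shortly before birth, cells with Col2-Cre and floxed Acly (Acly knockout; the enzyme makes acetyl-CoA from citrate in the cytoplasm) were compared with their own littermate controls. The alleles of either control group, and whether they carried Cre, are not given in the sources used here, nor is it said whether a sample was 1 animal or a pool. The p-values below therefore measure the spread between these samples.

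Collagen II is the main fibrillar collagen of cartilage and is made of identical chains from Col2a1. Collagen XI lies within the same fibrils and limits their width; its molecule joins the products of Col11a1 and Col11a2 with a modified chain that also comes from Col2a1. Collagen IX is a molecule of 3 different chains, from Col9a1, Col9a2 and Col9a3, that sits on the fibril surface and links it to the surrounding matrix, and collagen XXVII is a fibril-forming collagen of growth plate and other cartilage. The factors SOX9, SOX5 and SOX6 drive Col2a1 and several of its partners in chondrocytes. Col2-Cre takes its name from regulatory sequence of the collagen II gene, so the agent that deletes Ldha or Acly and the gene most abundant in this family share control elements.

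RefSeq promoter entries were found for 5 of the 7 genes, in 6 entries because Col9a1 has a pair of annotated starts; Col2a1 and Col9a3 are named only. The stretches below are the parts of these entries that lie before the outermost annotated start of the gene on GRCm38.p6, plus strand. Col9a1 and Col11a1 are shown as the genes whose Acly groups overlapped. Col9a2 is shown beside them as a gene that was higher in all knockout samples of both lines. Col2a1, Col9a3, Col11a2 and Col27a1 were higher in that way as well. Of these, Col2a1 and Col9a3 have no entry, and the windows of Col11a2 and Col27a1 lie mostly or wholly inside the annotated gene. Capitals mark GC boxes, GGGCGG on either strand. Col11a1 is at chr3:114030290-114030478, Col9a1 at chr1:24177360-24177588 and Col9a2 at chr4:121039316-121039565.
Col11a1: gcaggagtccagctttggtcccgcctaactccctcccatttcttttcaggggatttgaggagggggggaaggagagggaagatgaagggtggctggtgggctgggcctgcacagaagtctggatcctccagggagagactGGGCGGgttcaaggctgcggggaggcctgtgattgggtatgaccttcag
Col9a1: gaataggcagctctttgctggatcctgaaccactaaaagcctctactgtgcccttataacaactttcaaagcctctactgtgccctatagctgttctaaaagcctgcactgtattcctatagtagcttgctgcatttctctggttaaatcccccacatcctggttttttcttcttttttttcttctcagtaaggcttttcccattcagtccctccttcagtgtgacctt
Col9a2: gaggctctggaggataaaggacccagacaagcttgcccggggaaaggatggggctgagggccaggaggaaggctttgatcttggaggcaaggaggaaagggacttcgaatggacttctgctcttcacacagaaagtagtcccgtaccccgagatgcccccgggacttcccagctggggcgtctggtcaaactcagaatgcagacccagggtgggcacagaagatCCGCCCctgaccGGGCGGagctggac
Positions are counted back from the start that each entry is built on, which for Col11a1 lies 61 bases and for the printed Col9a1 entry 21 bases inside the annotated gene. The GC box of the printed Col11a1 stretch begins 110 bases before that start, and those of Col9a2 begin 26 bases (minus strand) and 14 bases (plus strand) before theirs. Over the full 250 bases before each entry's start, GGGCGG was found in the entries of Col11a1, Col11a2, Col27a1 and Col9a2 and in neither entry of Col9a1, beside 32.7% of 32851 RefSeq promoters of that length. Of these 250 bases, 219 for Col11a2 and all 250 for Col27a1 and the second Col9a1 entry lie inside the annotated gene, after another start. The SOX core letters ACAAAG (16.5% of all promoters) and ACAATG (10.7%) were in none of the 6 entries on either strand, and TATAAA (12.4%) was in that of Col11a2. These matches describe letters in these windows only. Just the exact spellings given were searched, so other forms of a SOX site were not looked for. The GC content of the windows ran from 43.6% for the Col9a1 entry printed here to 62.4% for Col11a1.

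Depth was even, at 26362407 to 28154143 expected counts per sample, so 3 counts correspond to 0.107 to 0.114 CPM (counts scaled to the library total), far below every collagen here. Ldha was at 86.7 ± 6.64 CPM in the LDH knockout against 845 ± 51.4 CPM in its control, and Acly was at 74.2 ± 18.9 CPM in the Acly knockout against 197 ± 4.81 CPM (SD, n = 3), so these targets were low where the labels say. Ldhb, of which the LDH knockout keeps 1 allele, was at 15.1 ± 1.14 against 11.7 ± 0.529 CPM (log2 0.37, edgeR adjusted p = 0.115). The summed level of 4 Y-linked genes was at most 0.0367 CPM in the 3 LDH knockout samples, against 0.590, 93.0 and 102 CPM in their controls; it was 0.0755, 74.3 and 82.8 CPM in the Acly knockout and 0.375, 2.83 and 121 CPM in its control. The Acly knockout replicate 2 stood apart by its fibroblast and perichondrium markers, which summed to 1010 CPM against 2845 and 2908 CPM in the other knockout samples, and by the lowest osteoblast, adipocyte and muscle sums of its group.

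The 7 collagens together took 1.70% to 2.60% of all counts in the LDH knockout against 0.936% to 1.10% in its control, and 1.42% to 1.58% in the Acly knockout against 0.781% to 0.898%. In both lines no knockout sample reached down to its controls. Col2a1 alone made up most of this, at 1.48% to 2.29% against 0.833% to 0.964% at postnatal day 5, and 1.07% to 1.23% against 0.562% to 0.632% at E18.5. Levels are compared between genes in TPM, a share of transcripts that takes their length into account. Col2a1 was first and Col27a1 last of the 7 in every group. Col2a1 was at 3508 ± 228 TPM in the LDH control (SD, n = 3), and the next gene, Col9a3, was at 139 ± 15.9 TPM. Col9a3 and Col11a1 (136 ± 28.9 TPM) overlapped there, as did Col9a2 (84.3 ± 7.84 TPM) and Col11a2 (67.9 ± 10.6 TPM), followed by Col9a1 (30.7 ± 7.09 TPM) and Col27a1 (4.26 ± 0.994 TPM) without overlap. In the Acly control the order was Col2a1 (2245 ± 195 TPM), Col11a1 (304 ± 33.7 TPM), then Col9a3, Col9a1, Col11a2 and Col9a2 between 149 ± 18.7 and 108 ± 14.4 TPM, each overlapping its neighbour, and Col27a1 at 30.8 ± 1.82 TPM.

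**Figure D1:**
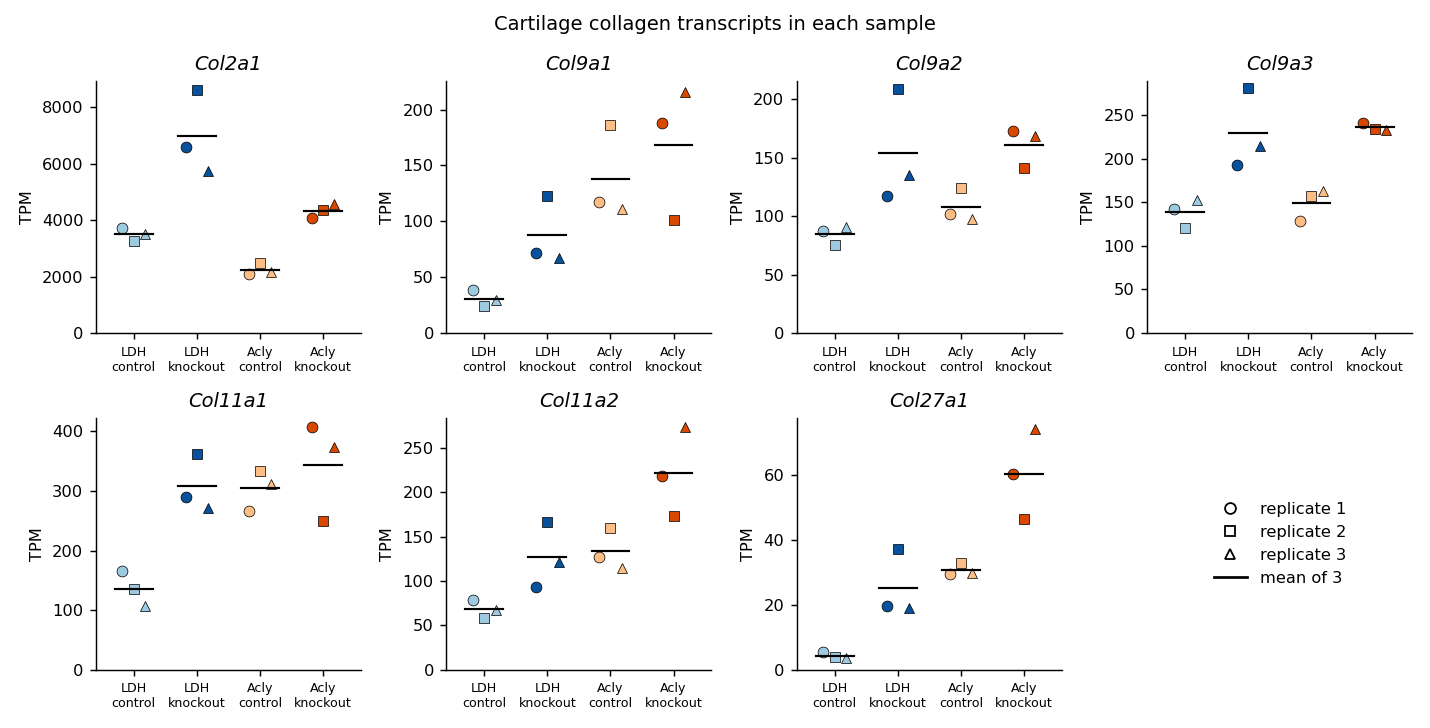
Level of each cartilage collagen in TPM (vertical axis, from 0) in each of the 12 samples; circles, squares and triangles are replicates 1, 2 and 3, bars are means of 3, and light and dark colours are controls and knockouts. Every LDH knockout sample lies above every LDH control sample for all 7 genes, while the Acly knockout and control overlap for Col9a1 and Col11a1.

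The first comparison asks what the loss of Ldha, with 1 Ldhb allele gone, does to these transcripts at postnatal day 5. All 7 collagens were higher in every LDH knockout sample than in any control sample, where 11.9% of 13321 tested genes were placed in that way. By edgeR with an adjusted p under 0.05, 6 of the 7 rose and none fell; 2.49% of all tested genes passed in either direction and 1.43% passed as higher. The median log2 fold change of the 7 was 1.02, against 0.01 over all tested genes. The rises ran from 1.67-fold for Col9a3 to 6.08-fold for Col27a1.

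Col2a1 (Entrez 12824), the collagen II chain, was at 6576, 8605 and 5726 TPM in LDH knockout replicates 1 to 3 and at 3726, 3271 and 3527 TPM in the controls. The lowest knockout sample lay well above the highest control, and replicate 2 was the highest of the knockouts. On the scaled counts Col2a1 rose 2.03-fold (log2 1.02, SE 0.16, edgeR adjusted p = 0.0123).

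Among the collagen IX chains, Col9a1 was at 71.8, 123 and 67.5 TPM in the LDH knockout and at 38.1, 24.0 and 29.9 TPM in the control. Col9a2 was at 117, 209 and 135 TPM against 87.0, 75.5 and 90.5 TPM. Col9a3 was at 193, 281 and 215 TPM against 142, 121 and 153 TPM. For all 3 chains the groups were apart, with knockout replicate 2 on top. Col9a1 rose most, 2.94-fold (log2 1.55, SE 0.25, edgeR adjusted p = 0.0160), and Col9a3 rose 1.67-fold (log2 0.74, SE 0.16, adjusted p = 0.0464). Col9a2 was the member that did not pass, at 1.86-fold (log2 0.89, SE 0.20, adjusted p = 0.0521).

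Of the collagen XI chains, Col11a1 was at 290, 362 and 271 TPM in the LDH knockout and at 165, 136 and 107 TPM in the control. Col11a2 was at 93.5, 166 and 121 TPM against 78.8, 57.7 and 67.3 TPM. The gap between the groups was wide for Col11a1 and narrow for Col11a2, whose knockout replicate 1 lay closest to control replicate 1. Col11a1 rose 2.32-fold (log2 1.21, SE 0.16, edgeR adjusted p = 0.00731) and Col11a2 rose 1.93-fold (log2 0.95, SE 0.20, adjusted p = 0.0384).

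Col27a1, the chain of collagen XXVII, was at 19.6, 37.2 and 18.9 TPM in the LDH knockout and at 5.39, 3.85 and 3.53 TPM in the control. It was the least abundant of the 7 and rose furthest, 6.08-fold (log2 2.60, SE 0.28, edgeR adjusted p = 0.00316). The knockout samples differed among themselves as well, replicate 2 standing at nearly the sum of the others. On scaled CPM, replicate 2 was the highest LDH knockout sample in 7 of 7 collagens, and control replicate 2 was the lowest control in 6.

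Leaving out 1 sample at a time gave between 2 and 7 called members, and the calls over all genes moved as well, from 332 to between 95 and 1068. The count of 7 came with the 1068 calls without LDH knockout replicate 3, and the count of 2 with the 95 calls without LDH control replicate 3, where Col2a1 had log2 1.06 (edgeR adjusted p = 0.0555) and Col9a1 log2 1.56 (0.0695), and where Col11a1 (0.0407) and Col27a1 (0.0339) passed. Col9a3 passed without LDH knockout replicate 3 (0.0297) and in none of the other 5 fits (0.0622 to 0.121), and Col11a2 failed to pass without knockout replicate 2 (0.0786) or any 1 control (0.0606 to 0.105). All LDH knockout samples had almost no Y-linked signal and only control replicate 3 shared that. Set against that control alone, assumed to vary like the knockout group, the log2 differences were 0.94 for Col2a1, 1.54 for Col9a1, 0.72 for Col9a2, 0.53 for Col9a3, 1.47 for Col11a1, 0.92 for Col11a2 and 2.78 for Col27a1, and none passed by edgeR (adjusted p from 0.0714 to 0.398; 1760 of all genes at an unadjusted p under 0.05). With the Y-linked signal as a covariate the values ran from 0.49 to 2.80 and none passed either, with 3 genes passing of all tested and 2026 at an unadjusted p under 0.05.

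The second comparison asks the same of Acly at E18.5. Col2a1, Col9a3 and Col27a1 rose, 3 of 7 by edgeR with an adjusted p under 0.05, and none fell. Of 13973 tested genes 0.136% passed in either direction and 0.0573%, or 8 genes, passed as higher, so 3 of the 8 higher genes were cartilage collagens. The knockout samples all lay above the controls in 5 of 7 collagens, beside 10.7% of all tested genes. The median log2 fold change of the 7 was 0.75, against -0.00 over all tested genes.

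Col2a1 was at 4059, 4360 and 4586 TPM in Acly knockout replicates 1 to 3 and at 2097, 2466 and 2173 TPM in the controls. Both groups were tight and far apart. It rose 2.07-fold (log2 1.05, SE 0.11, edgeR adjusted p = 0.0138).

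For collagen IX, Col9a1 was at 188, 101 and 216 TPM in the Acly knockout and at 117, 186 and 111 TPM in the control. Col9a2 was at 173, 141 and 169 TPM against 102, 124 and 97.5 TPM. Col9a3 was at 241, 234 and 233 TPM against 128, 157 and 163 TPM. For Col9a1, knockout replicate 2 lay below all controls in TPM and control replicate 2 came close to knockout replicate 1, so the groups overlapped; for Col9a2 and Col9a3 they did not. Col9a3 rose 1.68-fold (log2 0.75, SE 0.11, edgeR adjusted p = 0.0448). Col9a2, at 1.59-fold (log2 0.67, SE 0.10, adjusted p = 0.0536), and Col9a1, at 1.26-fold (log2 0.33, SE 0.25, adjusted p = 0.512), did not pass.

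For collagen XI, Col11a1 was at 408, 250 and 374 TPM in the Acly knockout and at 267, 334 and 312 TPM in the control. Col11a2 was at 218, 173 and 273 TPM against 127, 160 and 115 TPM. Knockout replicate 2 was again the lowest of its group in both. For Col11a1 it lay below every control in TPM, and on scaled CPM it was at 1088 against 1036 to 1203 in the controls. Col11a2 was at 1.72-fold (log2 0.78, SE 0.15, edgeR adjusted p = 0.114) and Col11a1 at 1.19-fold (log2 0.25, SE 0.14, adjusted p = 0.378), and neither passed.

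Col27a1 was at 60.1, 46.5 and 74.0 TPM in the Acly knockout and at 29.5, 32.8 and 29.9 TPM in the control. The controls were close together and below every knockout sample. It rose 2.07-fold (log2 1.05, SE 0.13, edgeR adjusted p = 0.0313). This call stood in 6 of 18 alternatives, at log2 values that ran from 0.90 to 1.15 over the 18. It was lost with total counts (edgeR adjusted p = 0.0564), with all 12 samples in 1 fit (0.0899) and with the Y-linked covariate (0.0708). Both limma fits lost it too (limma adjusted p = 0.0544 and 0.0580). So did the replicate block and the fits without knockout replicate 1, without knockout replicate 3 or without any 1 control. The Col9a3 call stood in 7 of 18 and the Col2a1 call in 12.

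On scaled CPM, knockout replicate 2 was the lowest of the Acly knockouts in 5 of the 7 collagens and the highest in the other two, Col2a1 and Col9a3, while control replicate 2 was the highest control in 6. Without that knockout sample 132 of all tested genes passed in place of 19, and among them 5 members: Col2a1 (log2 0.98, edgeR adjusted p = 0.000475), Col27a1 (1.15, 0.000509), Col9a2 (0.70, 0.00885), Col9a3 (0.69, 0.0108) and Col11a2 (0.89, 0.0108); Col9a1 was then at 0.57 (0.162) and Col11a1 at 0.39 (0.0731). Without knockout replicate 1, when 6 of all genes passed, only Col2a1 did so among the members (adjusted p = 0.0266). Without knockout replicate 3, or without any 1 of the controls, none passed by edgeR (0 to 6 of all genes passed, and 909 to 2323 were at an unadjusted p under 0.05), and the log2 fold change of Col2a1 stayed between 1.03 and 1.09. Among the samples of low Y-linked signal, the lone knockout lay above the 2 controls by log2 differences from 0.47 for Col11a1 to 0.99 for Col27a1, with 0.70 for Col9a1; its spread is borrowed from those controls. With those of high signal, 2 knockouts and 1 control, assumed to vary like the knockouts, Col9a1 was at log2 -0.13 and the others between 0.08 and 1.05, with adjusted p from 0.700 to 0.950 and no gene of all tested passing (1000 genes at an unadjusted p under 0.05).

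**Figure D2:**
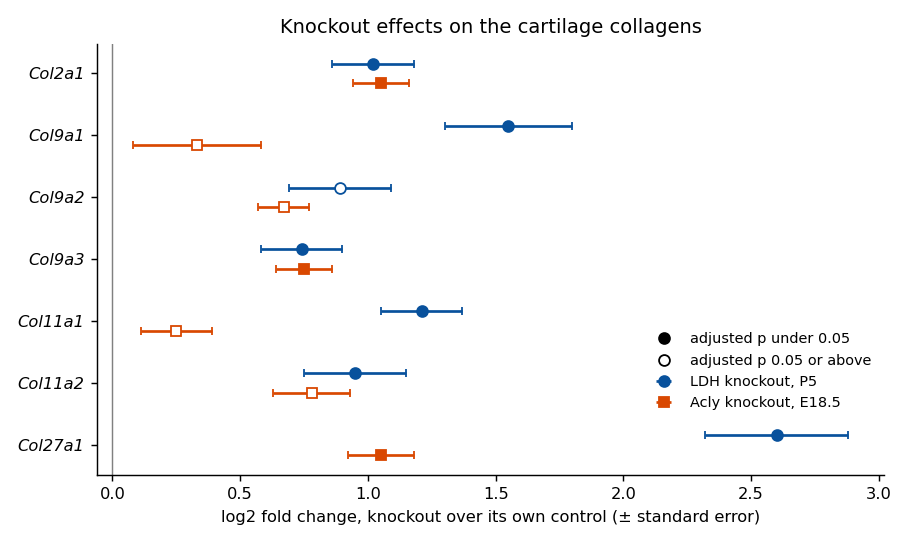
Log2 fold change of each cartilage collagen, knockout over its own control, from edgeR fits of 6 samples each (horizontal axis; bars are ± 1 standard error); circles are the LDH knockout at P5, squares the Acly knockout at E18.5, and filled symbols passed an adjusted p of 0.05. The pairs nearly coincide for Col2a1 and Col9a3 and lie apart for Col9a1, Col11a1 and Col27a1.

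Whether the effects differ between the lines was tested in a fit of all 12 samples. The LDH effect on Col2a1 minus the Acly effect was -0.01 on the log2 scale (SE 0.20, edgeR adjusted p = 0.985), and for Col9a3 it was 0.00 (SE 0.21, adjusted p = 0.996). Col9a2 and Col11a2 differed by 0.24 (SE 0.25) and 0.18 (SE 0.28), with adjusted p of 0.693 and 0.796. Larger differences, all towards a larger effect in the LDH knockout, were measured for Col27a1 at 1.57 (SE 0.34, unadjusted p = 0.000453, adjusted p = 0.0971), Col11a1 at 0.97 (SE 0.23, 0.00107, 0.138) and Col9a1 at 1.23 (SE 0.41, 0.0101, 0.268). None of the 7 passed after adjustment, where 0.161% of 14251 genes did. At an unadjusted p under 0.05 were 3 of the 7, beside 13.0% of the 14251 genes. DESeq2 called Col11a1 (log2 0.94, adjusted p = 0.00779) and Col27a1 (log2 1.54, 0.0315), and edgeR without LDH knockout replicate 3 called Col27a1 (log2 1.75, 0.0306). Line and age change together here and cannot be told apart.

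The controls themselves, E18.5 against postnatal day 5, differed in 5 of the 7 collagens, in a fit where 55.0% of 14251 genes differed, 29.4% being higher and 25.7% lower in the Acly control. Col27a1 was 6.44-fold (log2 2.69, SE 0.26, edgeR adjusted p = 2.80e-06) and Col9a1 4.01-fold (log2 2.0, SE 0.30, adjusted p = 0.000105) higher at E18.5, followed by Col11a1 (log2 1.0, SE 0.17, adjusted p = 0.000233) and Col11a2 (log2 0.80, SE 0.20, adjusted p = 0.00402). Col2a1 was lower at E18.5, by a log2 difference of -0.82 (SE 0.14, adjusted p = 0.000289). Col9a2 and Col9a3 did not pass, at 0.18 and -0.07, with adjusted p of 0.410 and 0.723. This comparison uses the same control samples as the knockout effects. Set side by side in TPM, the postnatal control had the lowest mean of the 4 groups for 6 of the 7 collagens, Col2a1 being the exception. The postnatal knockout had a mean of 87.4 TPM for Col9a1 against 138 TPM in the E18.5 control, 308 against 304 TPM for Col11a1, 127 against 134 TPM for Col11a2 and 25.2 against 30.8 TPM for Col27a1. For the other genes the means were 154 against 108 TPM for Col9a2, 229 against 149 TPM for Col9a3 and 6969 against 2245 TPM for Col2a1. These TPM were not scaled between the lines, and the share of all genes lowest in the postnatal control was not counted. Age, line and any difference in library handling coincide between these controls and cannot be told apart.

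The proportions of the chain transcripts were followed as ratios of TPM within each sample. Collagen IX and XI molecules need chains from different genes, so a ratio shows whether these moved in step. In the LDH knockout, Col9a1/Col9a2 was 0.612, 0.590 and 0.50, against 0.438, 0.318 and 0.331 in the control, so the knockout samples were all higher. Col9a1/Col9a3 was likewise apart, with geometric means of 0.372 and 0.218, while Col9a3/Col9a2 overlapped at 1.52 and 1.64. Col27a1/Col2a1 was apart as well, at 0.00298, 0.00432 and 0.00331 against 0.00145, 0.00118 and 0.0010, a log2 difference of 1.55. Col11a1/Col11a2 (2.47 and 1.99), Col11a1/Col2a1 (0.0445 and 0.0382) and Col9a2/Col2a1 (0.0217 and 0.0240) overlapped between the LDH groups.

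In the Acly knockout a different set of ratios was apart. Col11a1/Col11a2 was lower, at 1.87, 1.45 and 1.37 against 2.11, 2.09 and 2.70. Col11a1/Col2a1 was lower too, at 0.10, 0.0574 and 0.0816 against 0.128, 0.135 and 0.143, as was Col9a2/Col2a1, with geometric means of 0.0370 and 0.0479. Relative to Col2a1, then, Col11a1 and Col9a2 transcripts were fewer in every Acly knockout sample than in any control. Neither was lower by itself: Col2a1 was at 2.07-fold, Col9a2 at 1.59-fold and Col11a1 at 1.19-fold. Col27a1/Col2a1 overlapped at 0.0137 in both groups, and Col9a1/Col9a2 (0.997 and 1.25), Col9a1/Col9a3 (0.677 and 0.902) and Col9a3/Col9a2 (1.47 and 1.39) overlapped as well. With 3 samples against 3, the two-sided exact permutation test cannot go below p = 0.1, which was the value of the 6 ratios that were apart; adjusted over the 14 tests it was 0.233. Whether a ratio moved differently in the LDH and Acly lines was not tested.

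**Figure D3:**
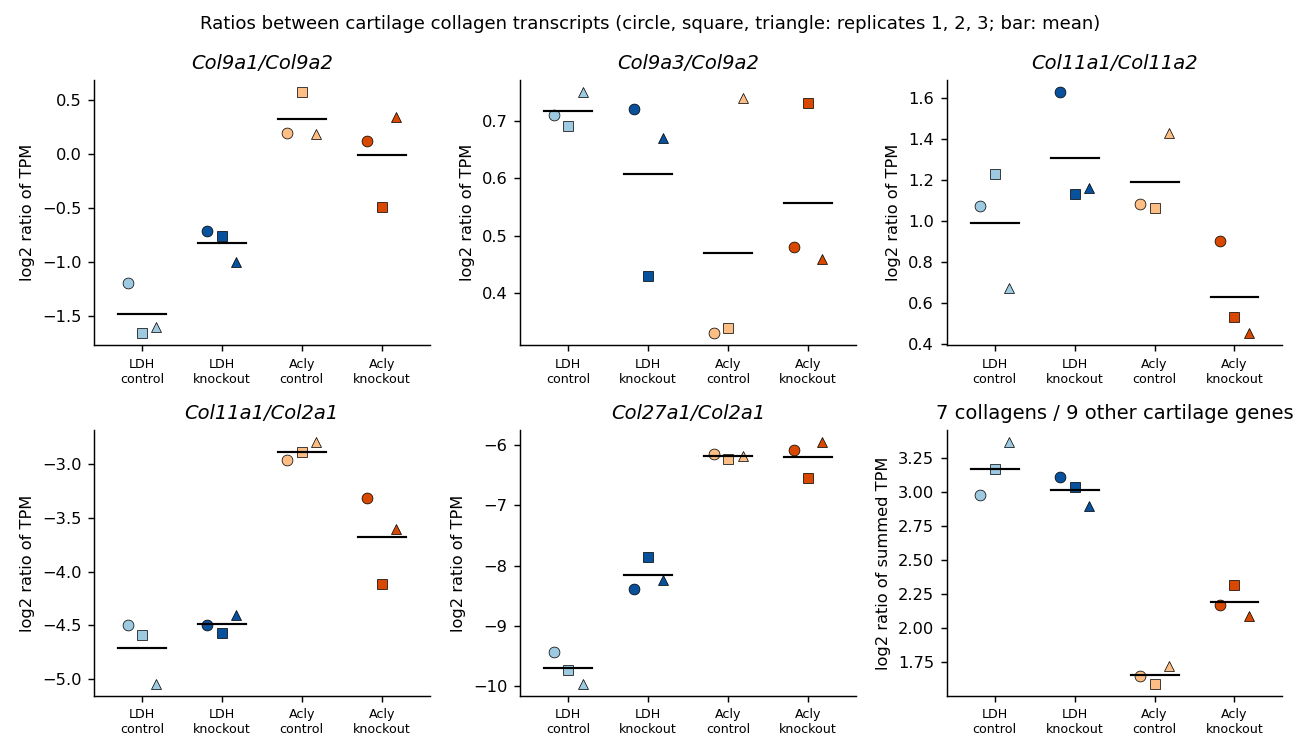
Log2 ratios of TPM (vertical axes) for 5 pairs of collagen transcripts and for the summed 7 collagens over 9 other cartilage genes, in each of the 12 samples; symbols are replicates 1 to 3 and bars are means of the log2 ratios. Col9a1/Col9a2 and Col27a1/Col2a1 are apart between the LDH groups, Col11a1/Col11a2 and Col11a1/Col2a1 between the Acly groups.

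The collagens were also set against 9 non-collagen cartilage genes, among them Acan, the core protein of aggrecan, and Matn3 and Comp, which bridge collagen fibrils and other matrix. The ratio of summed TPM was 8.61, 8.25 and 7.48 in the LDH knockout and 7.86, 8.99 and 10.3 in its control, with overlap. There the other cartilage genes were higher too: 4 of 8 tested rose, with a median log2 fold change of 1.34. In the Acly line the ratio was 4.5, 5.0 and 4.25 against 3.14, 3.0 and 3.29 in the control, so the collagen sum was higher relative to the other genes in every knockout sample (log2 difference 0.54). Col2a1 makes up most of that sum, and without it the difference was 0.16 and the groups overlapped.

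The other genes of collagen making and use were followed by lists written by hand. Their counts, and those of the markers further on, stand beside these shares over all tested genes. At an unadjusted p under 0.05 were 19.6% of genes in the LDH knockout and 15.8% in the Acly knockout. By DESeq2 879 of 13321 genes passed in the LDH knockout and 247 of 13973 in the Acly knockout. The transcription factors of the collagen II regulator list gave no call in either line by edgeR, with 3 of 6 tested at an unadjusted p under 0.05 and 1 called by DESeq2 in each. In the LDH knockout Sox9 was at 710, 735 and 856 CPM against 558, 625 and 560 CPM, higher in every sample (log2 0.40, SE 0.10, edgeR adjusted p = 0.0650). Sox5 was at log2 0.30 (adjusted p = 0.138), Sox6 at 0.19 (0.289) and Sox8, a relative of Sox9, at 0.40 (0.167); 6 of 6 tested regulators were above 0, with a median of 0.25. After the loss of Acly, Sox9 was at 552, 902 and 757 CPM against 642, 583 and 637 CPM, with overlap (log2 0.25, SE 0.16, adjusted p = 0.445). Sox5 was at -0.28 (0.265), Sox6 at -0.10 (0.617), Sox8 at 0.61 (0.18) and Trps1, a zinc finger factor of growth plate chondrocytes, at -0.34 (0.266).

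Among proteins that bind the fibril or fill the matrix around it, several were also higher in the LDH knockout: 6 of 15 tested rose and 1 fell, with a median log2 fold change of 0.86. Acan rose from 795 ± 101 to 1858 ± 292 CPM (SD, n = 3; log2 1.22, edgeR adjusted p = 0.00351), Matn3 by log2 1.83 (0.0101) and Snorc, a small proteoglycan of chondrocytes, by 1.45 (0.00316). Named after their values were seen, Ucma rose by 2.66, Cnmd by 1.70 and Matn4 by 1.47, and Matn2 was the gene that fell, at -0.41. Of 17 tested in the Acly knockout 1 rose, Comp, from 79.6 ± 7.36 to 163 ± 0.963 CPM (log2 1.03, adjusted p = 0.00722). Acan was at log2 0.56 (adjusted p = 0.148), Matn4 at 1.25 (0.0694) and Cnmd at 0.68 (0.284). Of the 17 genes 8 were below 0, among them, named after their values were seen, Dcn, a small proteoglycan of fibrous matrix, at -0.88 (0.179) and Matn2 at -0.39 (0.222), both lower in every knockout sample; the list median was 0.24.

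Enzymes that modify and fold collagen chains mostly did not pass. In the LDH knockout 3 of 17 rose and none fell, at a median of -0.01: P3h2, a prolyl 3-hydroxylase (log2 0.73, edgeR adjusted p = 0.00316), P4ha2, a subunit of prolyl 4-hydroxylase (0.54, 0.0264), and Colgalt2, which adds galactose to hydroxylysine (1.37, 0.00906). In the Acly knockout edgeR called 0 of 17, at a median of 0.04 (3 at an unadjusted p under 0.05, 0 by DESeq2), with P4ha1 at -0.29 (adjusted p = 0.273), Crtap at 0.27 (0.269) and Plod2 at -0.28 (0.315). Genes for the export of large procollagen from the endoplasmic reticulum had log2 fold changes below 0 in 5 of 5 tested in both lines. The median over all tested genes was 0.01 for the LDH and -0.00 for the Acly knockout, and the share of all genes below 0 was not counted. In the LDH knockout 2 of 5 tested genes fell and none rose, Mia3, a cargo receptor that loads collagen, from 231 ± 6.11 to 183 ± 3.61 CPM (log2 -0.34, adjusted p = 0.0423) and Sec24d, a coat protein of the transport vesicles, from 283 ± 46.4 to 176 ± 27.9 CPM (-0.69, 0.0387). The factor Creb3l2, an activator of this route in chondrocytes, was at -0.23 (0.138). With Acly deleted none of the 5 passed by edgeR (2 unadjusted, 1 by DESeq2), with a median of -0.21, Sec23a at -0.40 (0.268), Sec24d at -0.43 (0.211) and Creb3l2 at -0.14 (0.512). Mia3, named after its value was seen, was there at -0.09 (SE 0.09).

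Of the genes that trim procollagen and cross-link fibrils, 4 of 12 rose in the LDH knockout and none fell, at a median of 0.34. Loxl2, a lysyl oxidase that starts cross-links, rose from 36.6 ± 4.56 to 119 ± 21.9 CPM (log2 1.71, edgeR adjusted p = 0.00133), and its relative Loxl4 rose by log2 0.86 (0.00716). Pcolce2, an enhancer of the protease that removes the end of procollagen, rose by 1.21 (0.00731), and Lox, named after its value was seen, by 0.96 (0.0394). None of 12 passed by edgeR in the Acly knockout (2 unadjusted, 1 by DESeq2), with Pcolce2 at 0.63 (0.101), Tll1 at -0.63 (0.285) and Adamts3, which removes the amino-terminal end of procollagen II, at -0.44 (0.485). The difference between the lines passed for Loxl2 (log2 1.82, adjusted p = 0.00171) and, in the previous list, for P3h2 (0.65, 0.0278).

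Receptors for collagen and proteases that degrade it gave no edgeR call among 13 genes in either line, with 6 at an unadjusted p under 0.05 in each and 5 (LDH) and 2 (Acly) called by DESeq2. In the LDH knockout Ddr1, a collagen receptor kinase, was at log2 0.47 (edgeR adjusted p = 0.0841), Itga10, a collagen-binding integrin subunit of chondrocytes, at 0.40 (0.0864) and Ctsk, a protease, at -0.42 (0.0573). In the Acly set Mmp13, a collagenase that cleaves collagen II, was at 62.1 ± 11.6 against 132 ± 24.4 CPM (log2 -1.09, 0.0694), Itga10 at 0.35 (0.172) and Itga1 at -0.59 (0.245). Of the other collagens, 4 of 16 tested rose in the LDH knockout and 1 fell: Col10a1 of hypertrophic cartilage (1.70, 0.0118), Col6a2 (1.01, 0.0118) and Col6a3 (0.57, 0.00984) of the collagen VI around the cell, and, named after its value was seen, Col6a1 (0.61, 0.0423), against Col1a2 of bone and fibrous tissue at -1.0 (0.0196). Col10a1 also rose in the Acly knockout (1.02, 0.0314), 1 of 17, while Col3a1 was at -0.81 (0.353) and Col24a1 at -0.62 (0.241). The list medians were 0.43 and -0.13, beside 1.02 and 0.75 for the cartilage collagens.

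**Figure D4:**
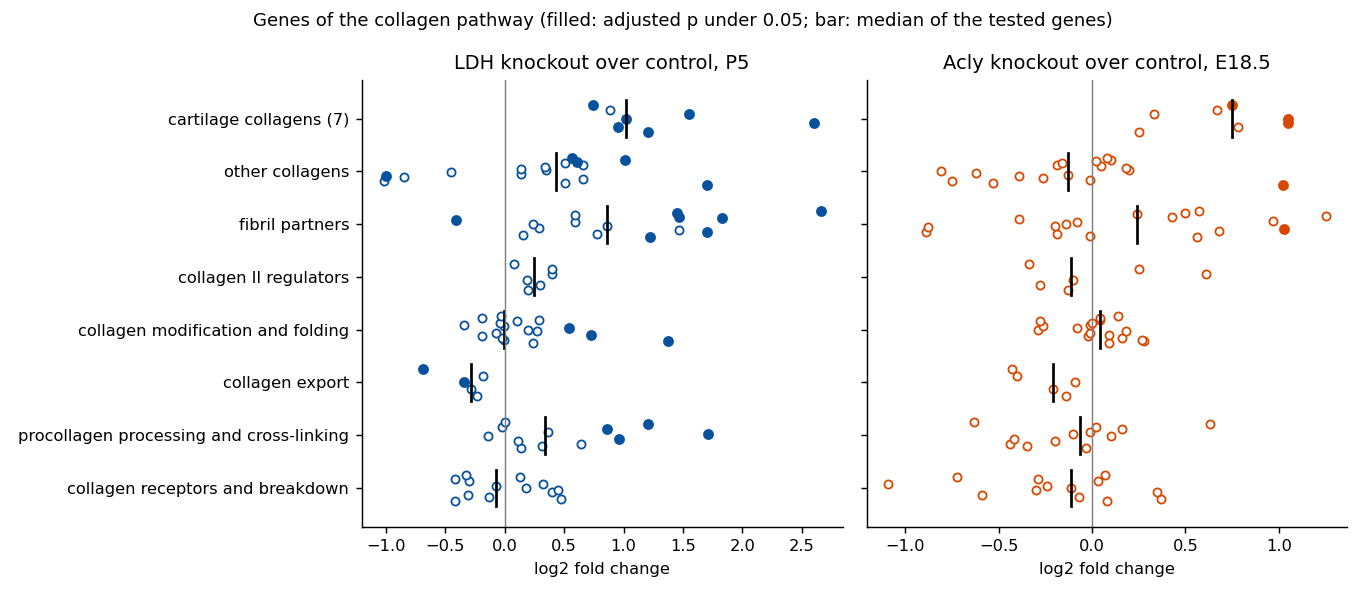
Log2 fold change (horizontal axes) of each tested gene of the cartilage collagens and of 7 lists of collagen-related genes in the LDH knockout (left) and the Acly knockout (right); filled circles passed an edgeR adjusted p of 0.05 and bars are list medians. The cartilage collagens have medians of 1.02 and 0.75, and the export list lies below 0 throughout in both panels.

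Summed markers of the cell types that such a culture could hold were compared over the same samples. In bulk RNA, fewer cells of a type and less RNA per cell cannot be told apart. In the LDH set, 7 chondrocyte markers other than collagens summed to 2650 to 3233 CPM in the knockout and 1369 to 1676 CPM in the control (4 of 6 tested rose). These 4 were Acan, Matn3, Snorc and Cnmd. They are the same 4 that rose among the non-collagen cartilage genes and are counted among the fibril partners too, so the lists are not separate results. Over the same samples, osteoblast and osteocyte markers summed to 85.4 to 111 against 154 to 272 CPM (2 of 6 fell, and Dmp1 was at 0 in the knockout), fibroblast and perichondrium markers to 244 to 269 against 266 to 463 CPM, and adipocyte markers to 68.2 to 96.8 against 35.8 to 52.4 CPM (4 of 6 rose). Hypertrophic markers summed to 2654 to 4890 against 6381 to 8967 CPM, but of the 5 genes Col10a1 rose (log2 1.70), Spp1, the gene of osteopontin, fell (log2 -1.01, edgeR adjusted p = 0.0384) and the median was 0.32. In the Acly set the chondrocyte sum was 2569 to 3170 against 2180 to 2355 CPM (0 of 7 passed by edgeR, 3 unadjusted, 1 by DESeq2). There the fibroblast sum was 1010 to 2908 against 3061 to 3714 CPM, and the osteoblast sum 605 to 1348 against 1198 to 1526 CPM. Col1a1 is counted in both of these lists and made up most of the osteoblast sum. After scaling it was at 484 to 1249 against 998 to 1312 CPM here, and at 68.8 to 82.0 against 91.3 to 195 CPM in the LDH set. The hypertrophic sum was 4865 to 6540 against 6817 to 10036 CPM with 1 rise among 5, Col10a1 (log2 1.02). Of the others Ihh was at log2 1.40, and Mmp13, Spp1 and Ibsp were at -1.09, -0.49 and -0.37. Muscle markers summed to 19.9 to 37.4 against 21.2 to 38.1 CPM at postnatal day 5 and to 153 to 356 against 326 to 425 CPM at E18.5. The part of these shifts in the collagen results was not tested.

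Over all 12 samples, each centred within its line, the gene whose pattern lay closest to that of Col2a1 among 10574 genes was Pcolce2, with a root mean square difference of 0.18 on the log2 scale. Col9a3 (0.18), Col9a2 (0.20) and Col11a2 (0.21) came next, in places 2 to 4. The growth factor receptor gene Fgfr3 (0.22) followed, then Haus8, Acan, Chadl, Dusp8 and Meltf (0.23 each), and Tinagl1, Fbln7 and Pir (0.24 each). The other collagens of the set lay further away: Col11a1 in place 124 (0.36), Col9a1 in place 896 (0.44) and Col27a1 in place 6470 (0.58). This distance counts the size of a change as well as its direction. Col27a1 was higher in every knockout sample of both lines, as Col2a1 was, but by log2 2.60 and 1.05. All these distances share the same libraries and scaling and are a description only.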

How the data were processed

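RNA-seq of 12 mouse rib chondrocyte samples was deposited as 1 table. Per the file headers, the authors deposited a read count, an FPKM and a TPM value per gene and sample. Between 7.32% and 8.16% of a sample's deposited read counts are not whole numbers, so they were treated as estimated counts made by the authors from their reads, and rounded. HISAT2 2.0.4 and mm9 are named in the submitters' processing notes without a role; the counting program, annotation and use of strand are not given in the sources used here. RefSeq places Gm46536 over Col2a1, Tcfl5 over Col9a3, and Gm52743 and Mir455 over Col27a1, so their counts are uncertain to that extent. Promoters are from RefSeq on GRCm38.p6, and no coordinate comes from the table. Garbled symbols of 28 genes were restored from their Entrez numbers.

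Counts were tested with edgeR 4.0.16 in R 4.3.3 (TMM, filterByExpr, two-sided quasi-likelihood F tests, Benjamini-Hochberg over all genes tested, threshold 0.05), 6 samples per fit for a knockout and the control of its line, and the difference of effects and the controls in a fit of 12. Standard errors are the absolute log2 fold change over the square root of F. CPM are TMM-scaled except for Y-linked and marker sums; the deposited TPM values served for levels and ratios, and the deposited FPKM values for limma 3.58.1 on log2(FPKM + 1) and log2(FPKM + 0.1). Depths of 26362407 to 28154143 counts give a floor of 3 counts at 0.107 to 0.114 CPM, which covers counting error only. Ratios had exact permutation tests; the summed ratio is given without a p. No pair of libraries of the same group was alike within sampling noise, and pairs across groups were not compared. The script was tested on simulated data.

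The members and lists were chosen with earlier results of these data known. Named genes are the 7 collagens, Sox9, Sox5 and Sox6, the targeted genes, the 3 lowest p per list and line, and the 10 genes nearest Col2a1 (mean of at least 5 CPM, log2 CPM with a prior count of 2). Tried beside these were total counts, median-of-ratios scaling, scaling without the 7 genes, no filter, DESeq2 1.42.0, limma, all 12 samples in 1 fit, the replicate number as a block, a Y-linked covariate and leaving out each sample; fits split at 10 CPM of Y-linked signal were added after seeing the data.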

Additional observations from a re-analysis of the deposited data

How the results depend on the processing

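The log2 fold changes of the 7 collagens stayed above 0 in 119 of 119 alternative values for the LDH knockout and in 125 of 126 for the Acly knockout. The exception was Col9a1 at -0.13 with the samples of high Y-linked signal, a split added after seeing the data. These values are refits of the same samples and not separate checks. All 7 genes were apart between the LDH groups, so leaving out a sample could hardly turn a sign there. How many passed varied more. In the LDH knockout 6 passed, with 0 under the Y-linked covariate (2026 genes at an unadjusted p under 0.05), 0 with the samples of low Y-linked signal (added; 1760 genes) and 2 to 7 when leaving out 1 sample. In the Acly knockout 3 passed, with 5 by DESeq2, 5 with the samples of low Y-linked signal (added; the knockout arm is then 1 library whose spread is borrowed from 2 controls, and 70 of all genes passed), 1 each from total counts, all 12 samples in 1 fit and the Y-linked covariate, 0 with the samples of high signal (added; 1000 genes unadjusted) and 0 to 5 when leaving out 1 sample. For the difference of effects none passed, with 2 by DESeq2 and 0 to 1 when leaving out 1 sample. The 5 calls between the controls stood in all 19 alternatives. The DESeq2 counts above came with more calls over all genes. It called 879 genes in the LDH knockout and 247 in the Acly knockout, against 332 and 19 by edgeR. Over all genes, calls ran from 3 to 1068 (LDH, 332 as reported), 0 to 247 (Acly, 19), 5 to 213 (difference, 23) and 6705 to 8361 (controls, 7844); without scaling, 72.4% of calls between controls were higher in place of 53.3%, with the median of all genes at 0.19 in place of 0.02, and 27.3% of Acly calls were higher in place of 42.1%.

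Replicate numbers gave no sign of pairing: same-numbered deviations correlated at 0.0491, -0.159 and 0.00619 (LDH) and 0.00112, -0.215 and -0.222 (Acly), and not every sample correlated best with its own number. These are deviations from means of 3 samples, so the check cannot exclude that littermates were paired. With the replicate block 4 of 7 passed in the LDH knockout, 0 in the Acly knockout (1210 genes at an unadjusted p under 0.05) and 0 for the difference.

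Small differences changed sign. For the difference of effects, Col2a1 (-0.01) was 0.01 with total counts and -0.21 to 0.12 when leaving out 1 sample, Col9a2 (0.24) -0.07 to 0.40, Col11a2 (0.18) -0.07 to 0.36, and Col9a3 (0.00) -0.19 to 0.12, with -0.03 under median-of-ratios scaling and DESeq2 and -0.01 under the replicate block. Between controls, Col9a3 (-0.07) was 0.11 with total counts and with both limma fits and -0.21 to 0.04 when leaving out 1 sample. The Acly log2 ratio of Col27a1 to Col2a1 (-0.01) ran from -0.13 to 0.17 when leaving out 1 sample. That of the collagen sum to the other cartilage genes (0.54) was 0.16 without Col2a1, where the groups overlapped. The cause of these shifts was not tested. All 7 genes lay above the floor of 3 counts: the lowest, Col27a1 in the LDH control, was at 17.1 ± 3.85 CPM.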
